A study of Arabidopsis thaliana with 30 samples.

Results

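The 9 genes described here encode 5 small heat shock proteins and 4 other proteins of the heat shock and chaperone system of Arabidopsis thaliana. They were chosen as a list of genes with earlier results of these data known. Counts among the 9 set beside shares of all probe sets are therefore a description. Each gene was read through the Affymetrix ATH1 probe set matched to that gene alone. Each of the 9 had exactly 1 such probe set, which gave 9 probe sets of the 22746 tested. AT5G37670 (249575_at) encodes a peroxisomal small heat shock protein, AT1G53540 (260978_at) a cytosolic class I small heat shock protein, and ATHSP22.0 (AT4G10250, 255811_at) the small heat shock protein of the endoplasmic reticulum. AT5G51440 (248434_at) and AT1G52560 (262148_at) encode small heat shock proteins placed in the mitochondrion. Hsp70-2 (AT5G02490, 250994_at) is a cytosolic HSP70 chaperone, AT1G71000 (262307_at) a protein with a DnaJ domain, AT5G48570 (248657_at) the FKBP-type immunophilin ROF2, also called FKBP65, and HSA32 (AT4G21320, 254414_at) a heat-stress-associated protein. The compartments and roles are background knowledge and were not measured.

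Heat shock proteins and chaperones keep unfolding proteins soluble and help them refold. Small heat shock proteins bind unfolding clients without using ATP, and HSP70 chaperones then refold those clients with the help of proteins that carry a DnaJ domain. In plants the small heat shock proteins form separate classes for the cytosol and for single organelles, and most of their genes are transcribed weakly in leaves until heat or another protein-damaging stress, such as strong light, activates heat stress transcription factors. HSA32 is known for holding up acquired heat tolerance over days, and ROF2 for modulating the heat stress response.

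The study exposed seedlings to high light to follow responses to singlet oxygen, a reactive oxygen species formed when excited pigments pass energy to oxygen. RNA came from 5 lines in the Col-0 background, each harvested at 0 h, without high light, and after 3 h at 1000 µE m-2 s-1, with 3 biological replicates for each of the 10 groups. The lines were the wild type, 3 lines with altered MBS1, named mbs1-1, 35S:MBS1 and RNAi-MBS2/mbs1-1, and flu. The flu mutant accumulates the singlet oxygen sensitizer protochlorophyllide in the dark. MBS1 is a small zinc finger protein with a role in singlet oxygen responses, and mbs1-1 carries a mutation in its gene. RNAi-MBS2/mbs1-1 has the same mutation and, in addition, an RNA interference construct named for the paralogue MBS2. The line 35S:MBS1 expresses MBS1 from the constitutive viral 35S promoter, hence not in one cell type. All seedlings were 12 days old, grew on agar plates with 1% sucrose, had spent 7 days in continuous light of 10 µE m-2 s-1, and were collected whole without the root. High light followed 3 h of darkness, so a difference between 3 h and 0 h covers the darkness and the high light together, and it is not given whether the 0 h seedlings were harvested before or after the dark period.

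Levels are log2 values made with robust multi-array averaging, and a difference of 1 on this scale is a 2-fold difference. The 30 arrays had mean levels from 6.70 to 6.96, and arrays of one group correlated at 0.983 to 0.996 over all probe sets. Their number limits the precision. MBS1, MBS2 and FLU had 0 probe sets matched to them alone, so the labels of the lines were not checked against the targeted genes. Of 12 listed shoot markers 1 was matched to a probe set of its own, the Rubisco activase gene RCA, at 11.87 to 12.91 on the 30 arrays. Of 10 listed root markers 4 were matched. EXPA7 and AT3G54580, which mark root hairs, lay at 2.63 to 3.32 and at 2.03 to 2.42, AT1G71740 lay at 3.79 to 5.72, and PYK10, which is also known from the hypocotyl, lay at 11.04 to 12.49. Levels as low as those of the root hair markers and of AT1G71740 were not shown to lie above background, so for genes that low in a group the differences are given on the log2 scale with no fold. In seedlings collected without the root, a change in the number of cells of a type and a change in RNA per cell cannot be told apart.

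One array of the wild type at 0 h stood apart for the heat shock genes. Replicate 3 of this group was the highest of the 3 arrays for 9 of 9 genes, and it exceeded both others by more than 1 for 6 of them. Over all tested probe sets that array was the highest of its group in 17.3% and by more than 1 in 0.268%. AT1G53540 was at 5.95, 6.39 and 11.98 on the 3 wild type arrays at 0 h. ATHSP22.0 was at 2.99, 3.01 and 7.89. AT5G48570 was at 8.64, 8.70 and 11.54. In each of these cases replicates 1 and 2 lay within 0.44 of each other, and replicate 3 lay 2.85 to 5.59 above the higher of them. The same array was the highest of its group for 11 of 22 other heat shock genes matched, and by more than 1 for AT2G29500, AT1G54050, Fes1A, AT2G20560 and Hop3. Its mean level over all probe sets, 6.71, was near the low end of the 30 arrays. Comparisons with the wild type at 0 h are therefore given with and without this array. In the fit of all 10 groups it also entered the errors of the other comparisons.

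**Figure D1:**
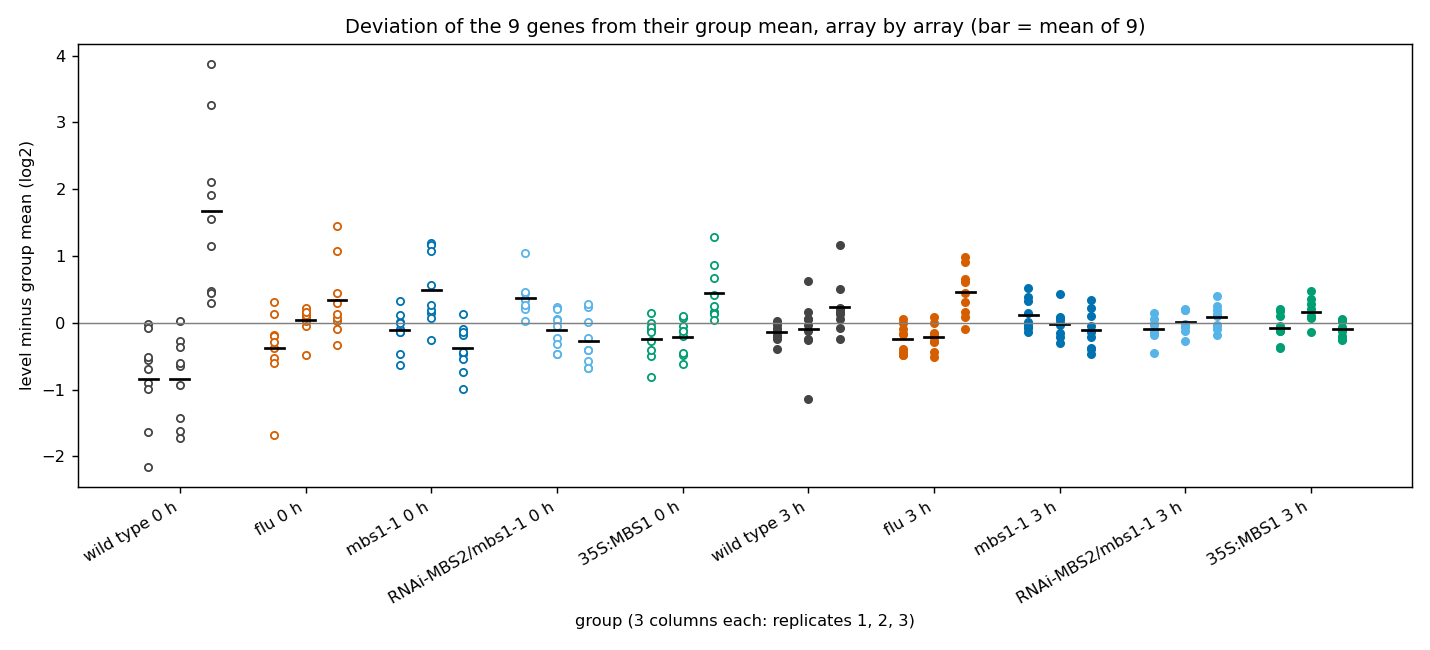
Deviation of each array from its group's mean (log2) for the 9 genes, drawn for the 10 groups of 3 arrays. Wild type 0 h replicate 3 lies above its group's mean for 9 of 9 genes.

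The plot of deviations by array shows that the other groups had smaller spreads in these genes. The median SD of the 9 genes was 1.35 in the wild type at 0 h and 0.18 to 0.41 in the other 9 groups, against 0.17 over all probe sets in the wild type at 0 h. Single arrays also led in other groups. Replicate 3 of flu at 3 h was the highest of its group for 8 of 9 genes, replicate 3 of 35S:MBS1 at 0 h for 8, and replicate 2 of mbs1-1 at 0 h, replicate 1 of RNAi-MBS2/mbs1-1 at 0 h and replicate 2 of 35S:MBS1 at 3 h for 7 each. Over all probe sets these 5 arrays were the highest of their group in 29.4% to 43%. The genes differed in how much they scattered. AT1G53540 had a residual SD of 1.31 and ATHSP22.0 of 1.05, whereas Hsp70-2 had 0.22, close to the median of 0.20 over all probe sets. The wild type at 0 h was the most scattered group for AT1G53540 and ATHSP22.0, with SDs of 3.36 and 2.83. In the other 9 groups their SDs were 0.08 to 1.57 and 0.05 to 1.02.

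A rise at 3 h in every line was called for 3 of 9 genes, against 13.4% of all probe sets. They were the cytosolic Hsp70-2 and AT1G71000 and the mitochondrial AT5G51440. Below, the response of a line is its level at 3 h minus that at 0 h. Hsp70-2, which refolds proteins in the cytosol, was at 8.22, 7.97 and 8.53 in the wild type at 0 h and at 11.63, 11.53 and 11.78 at 3 h. In flu it was at 8.32, 8.03 and 7.68 at 0 h and at 11.81, 11.83 and 12.29 at 3 h. The groups of each line did not overlap, and all 15 arrays at 3 h lay above all 15 arrays at 0 h. Hsp70-2 rose by 3.41 ± 0.18 in the wild type (limma, Benjamini-Hochberg adjusted p = 3.76e-14), which is 10.6-fold, and by 3.23 to 3.96 in the 5 lines. Its rise in the wild type was 3.55 ± 0.19 without wild type 0 h replicate 3. At 3 h its mean level ranged from 11.64 in 35S:MBS1 to 11.97 in flu, and neighbours in the order of the 5 lines overlapped.

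AT1G71000, a DnaJ-domain protein of the kind that delivers clients to HSP70, had the largest rise of the 9 genes in each of the 5 lines. It was at 3.62, 4.16 and 4.60 in the wild type at 0 h and at 9.10, 7.97 and 10.28 at 3 h. The corresponding values in flu were 3.45, 3.90 and 4.13 at 0 h and 10.42, 10.51 and 10.32 at 3 h. Here too every array at 3 h lay above every array at 0 h. The rise was 4.99 ± 0.34 in the wild type (limma adjusted p = 5.69e-12) and 6.59 ± 0.34 in flu (limma adjusted p = 2.55e-14), and 5.23 ± 0.37 in the wild type without replicate 3 at 0 h. It was 4.65 ± 0.34 in 35S:MBS1, 5.93 ± 0.34 in mbs1-1 and 4.97 ± 0.34 in RNAi-MBS2/mbs1-1. The wild type at 3 h was the most scattered group, with an SD of 1.16, against 0.06 to 0.43 in the other lines at 3 h.

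AT5G48570, the immunophilin ROF2, was at 11.66, 11.81 and 12.07 in the wild type at 3 h. In flu it was at 10.31, 10.63 and 10.59 at 0 h and at 13.13, 12.85 and 13.23 at 3 h. In RNAi-MBS2/mbs1-1 it was at 11.76, 11.45 and 10.99 at 0 h and at 11.98, 11.88 and 12.12 at 3 h. The flu groups stood far apart, whereas those of RNAi-MBS2/mbs1-1 lay next to each other without overlap. The gene rose by 2.22 ± 0.45 in the wild type (limma adjusted p = 0.000193), and by 3.18 ± 0.27 without wild type 0 h replicate 3. It rose by 2.56 ± 0.45 in flu, by 2.29 ± 0.45 in 35S:MBS1 and by 1.44 ± 0.45 in mbs1-1 (limma adjusted p = 0.0106, and 0.0564 without mbs1-1 0 h replicate 3). In RNAi-MBS2/mbs1-1 the difference was 0.59 ± 0.45, with a 95% interval of -0.34 to 1.52 (limma adjusted p = 0.300). It was called higher there with only the 2 groups compared in the fit (limma adjusted p = 0.0352).

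AT1G53540, the class I small heat shock protein, had the largest residual SD of the 9 genes. It was at 7.89, 9.79 and 11.01 in flu, at 11.45, 11.24 and 10.32 in RNAi-MBS2/mbs1-1 and at 6.41, 6.73 and 8.50 in 35S:MBS1 at 0 h. At 3 h it was at 10.39, 11.40 and 10.53 in the wild type and at 13.17, 13.04 and 13.78 in flu. RNAi-MBS2/mbs1-1 at 0 h overlapped the wild type at 3 h, and flu at 3 h lay above all other 27 arrays. The gene rose by 3.77 ± 0.95 in flu (limma adjusted p = 0.00170) and by 3.75 ± 0.95 in 35S:MBS1 (limma adjusted p = 0.00197). In flu the rise was between 2.94 and 4.50 when 1 array was left out, the lower value without flu 0 h replicate 1 and the higher without flu 0 h replicate 3. Without 35S:MBS1 0 h replicate 3 the rise in 35S:MBS1 was 4.39. The rise in the wild type, 2.67 ± 0.95 (limma adjusted p = 0.0240), was 4.60 ± 0.64 without wild type 0 h replicate 3. It was 1.59 to 1.81 and no longer called without replicate 1 or 2 of that group, and the call was also lost without wild type 3 h replicate 2 (limma adjusted p = 0.0856) and with only the 2 groups compared in the fit (limma adjusted p = 0.154). In mbs1-1 and RNAi-MBS2/mbs1-1 the differences were 0.72 ± 0.95 and 0.14 ± 0.95, with 95% intervals of -1.24 to 2.69 and -1.83 to 2.10.

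HSA32 moved in opposite directions in flu and in the wild type. It was at 7.48, 7.19 and 8.01 in the wild type at 0 h and at 6.39, 6.58 and 6.58 at 3 h. In flu it was at 7.18, 7.63 and 7.60 at 0 h and at 8.32, 8.44 and 9.37 at 3 h. In neither line did the groups overlap, with 3 h below 0 h in the wild type and above it in flu. HSA32 fell by 1.04 ± 0.23 in the wild type (limma adjusted p = 0.000512) and rose by 1.24 ± 0.23 in flu (limma adjusted p = 5.91e-05). Without wild type 0 h replicate 3 the difference in the wild type was -0.82 ± 0.24 (limma adjusted p = 0.00793). It also fell in RNAi-MBS2/mbs1-1, by 0.67 ± 0.23 (limma adjusted p = 0.0194), a call that was lost without replicate 1 at 0 h or replicate 1 at 3 h (adjusted p of 0.101 and 0.0754). In mbs1-1 and 35S:MBS1 its differences were -0.48 ± 0.23 and -0.54 ± 0.23, neither of them called, but each called lower in 3 of 14 alternatives. Both were called with each array centred on its median (adjusted p of 0.0477 and 0.0475). The lowest adjusted p was 0.0434 in mbs1-1, without mbs1-1 3 h replicate 1. In 35S:MBS1 it was 0.0120, with only the 2 groups compared in the fit.

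The small heat shock protein of the endoplasmic reticulum, ATHSP22.0, rose at 3 h in flu and in 35S:MBS1. It was at 4.17, 4.78 and 5.14 in flu at 0 h and at 8.81, 8.78 and 10.28 at 3 h. In 35S:MBS1 it was at 3.19, 3.24 and 3.45 at 0 h and at 5.60, 5.92 and 5.40 at 3 h. Wild type arrays at 3 h were at 4.44, 4.72 and 4.81, between replicates 1 and 2 of the wild type at 0 h and replicate 3. ATHSP22.0 rose by 4.59 ± 0.77 in flu (limma adjusted p = 1.54e-05), and by 2.34 ± 0.77 in 35S:MBS1 (limma adjusted p = 0.0139). Its difference in the wild type was 0.02 ± 0.77 with all arrays, with a 95% interval of -1.56 to 1.61, and 1.66 ± 0.47 without wild type 0 h replicate 3, where it was called (limma adjusted p = 0.00563). In mbs1-1 and RNAi-MBS2/mbs1-1 the differences were -0.35 ± 0.77 and -0.53 ± 0.77.

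The mitochondrial small heat shock proteins followed separate patterns. AT5G51440 was at 7.79, 7.74 and 9.48 in the wild type at 0 h and at 12.00, 11.72 and 12.17 at 3 h. It was at 8.80, 8.62 and 8.58 in flu at 0 h and at 12.33, 12.43 and 12.52 at 3 h. All 15 arrays at 3 h lay above all 15 at 0 h. AT5G51440 rose by 3.63 ± 0.34 in the wild type (limma adjusted p = 1.69e-09), by 4.20 ± 0.28 there without replicate 3 at 0 h, and by 2.63 to 4.26 over the 5 lines, the lower value in RNAi-MBS2/mbs1-1 and the higher in 35S:MBS1. AT1G52560 was at 5.13, 4.39 and 7.93 in the wild type at 0 h and at 4.28, 4.52 and 4.28 at 3 h. In flu it was at 4.90, 5.02 and 6.58 at 0 h and at 10.13, 10.17 and 11.51 at 3 h. The flu arrays at 3 h lay far above all others, and the wild type groups overlapped, with replicate 3 at 0 h far above both. AT1G52560 rose by 5.10 ± 0.59 in flu (limma adjusted p = 5.92e-08). It fell by 2.18 ± 0.59 in RNAi-MBS2/mbs1-1 (limma adjusted p = 0.00371). In the wild type it fell by 1.45 ± 0.59 with all arrays (limma adjusted p = 0.0476), but the difference was -0.40 ± 0.48 and not called without wild type 0 h replicate 3 (limma adjusted p = 0.533). Leaving out any of the 3 wild type arrays at 3 h ended that call too, as did treating the replicate number as a block (adjusted p = 0.0525), quantile normalization, another variance prior and a fit of only the 2 groups (adjusted p of 0.0578, 0.0770 and 0.159). Its differences in mbs1-1 and 35S:MBS1 were -1.03 ± 0.59 and -0.12 ± 0.59.

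The peroxisomal small heat shock protein AT5G37670 rose at 3 h in flu. It was at 6.88, 7.13 and 9.34 in the wild type at 0 h and at 6.68, 6.67 and 7.43 at 3 h. In flu it was at 7.51, 7.86 and 7.72 at 0 h and at 9.49, 9.75 and 10.54 at 3 h. In RNAi-MBS2/mbs1-1 it was at 8.89, 8.20 and 8.90 at 0 h and at 7.19, 7.05 and 7.73 at 3 h. The groups overlapped in the wild type, whereas flu was higher and RNAi-MBS2/mbs1-1 lower at 3 h without overlap. AT5G37670 rose by 2.23 ± 0.43 in flu (limma adjusted p = 8.60e-05) and fell by 1.34 ± 0.43 in RNAi-MBS2/mbs1-1 (limma adjusted p = 0.0121). In the wild type its difference was -0.86 ± 0.43 with all arrays (limma adjusted p = 0.107). It was called lower, at -1.31 and -1.18, without wild type 0 h replicate 1 or 2, and was -0.08 ± 0.34 without replicate 3. In mbs1-1 and 35S:MBS1 its differences were -0.70 ± 0.43 and -0.32 ± 0.43, that of mbs1-1 being called lower with only the 2 groups compared in the fit (limma adjusted p = 0.0432).

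**Figure D2:**
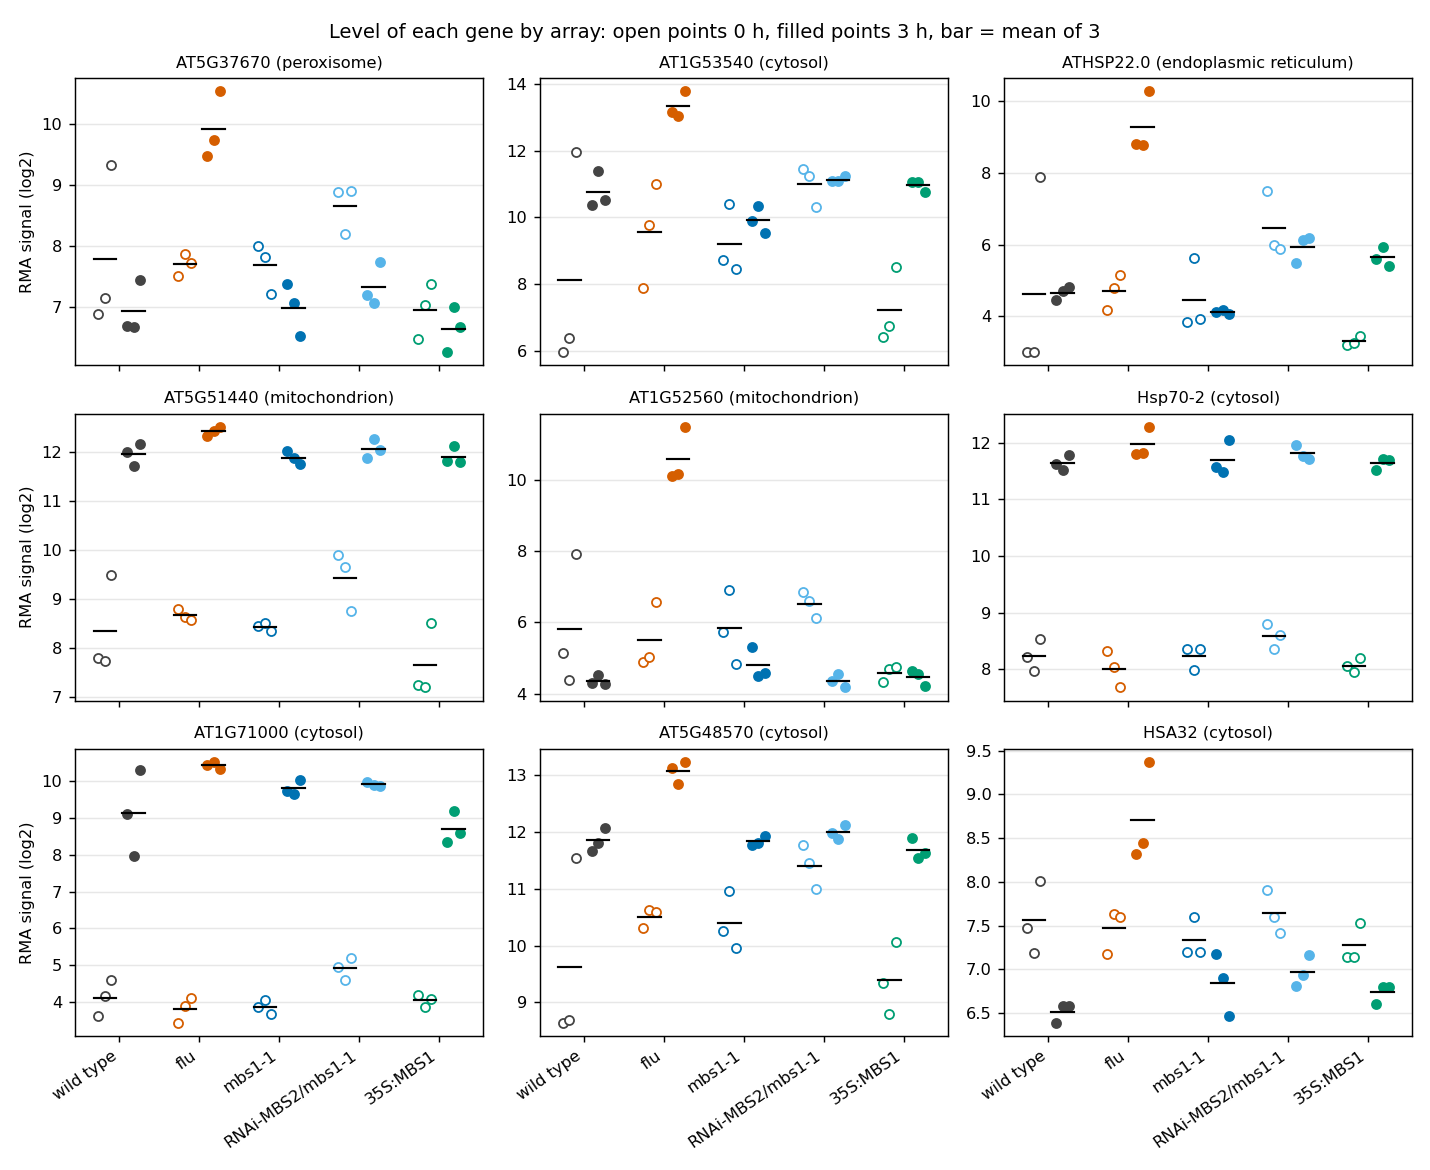
Log2 level of the 9 genes on each of the 30 arrays, one panel for each gene, with the mean of the 3 arrays of each group as a bar. The flu arrays at 3 h lie above the other 27 arrays for 8 of 9 genes, and Hsp70-2 is the exception.

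The plot of levels by array sets these patterns side by side. The flu group at 3 h had the highest of the 10 group means for 9 of 9 genes, against 13.6% of all probe sets. Its 3 arrays lay above all other 27 for 8 of 9 genes, against 4.2% of all probe sets. Below flu at 3 h the order differed between genes. For Hsp70-2, AT1G71000 and AT5G51440 the other 4 groups at 3 h came next and all 5 groups at 0 h last, a separation of all 15 from all 15 arrays that 10.8% of all probe sets showed. For HSA32 the 5 groups at 0 h came next, at 7.27 to 7.64, and the other groups at 3 h last, at 6.52 to 6.97. For AT5G37670, AT1G52560 and ATHSP22.0 RNAi-MBS2/mbs1-1 at 0 h was second, with means of 8.66, 6.53 and 6.46. Each of these overlapped the group next in order.

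Counted over the 9 genes, the number that rose at 3 h was highest in flu. Counts of genes that rose or fell, here and below, are counts of calls. In the wild type 5 genes rose, against 21.1% of all probe sets called higher, and 2 fell, against 24.4% called lower. The median of the 9 differences was 2.22, against -0.07 over all probe sets. Without wild type 0 h replicate 3 the count was 6 higher and 1 lower (19% and 24.9% of all probe sets), with a median of 3.18. In flu all 9 genes rose and none of their groups overlapped, against 23% of all probe sets called higher and 23.8% higher without overlap. The median in flu was 3.77, against -0.05 over all probe sets.

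In the lines with altered MBS1 fewer genes passed the test than in flu. In mbs1-1 4 genes rose and 0 fell (25.9% and 18.8% of all probe sets), with a median of 0.72 against 0.10 over all probe sets. AT5G51440, Hsp70-2, AT1G71000 and AT5G48570 were the 4. In RNAi-MBS2/mbs1-1 3 rose and 3 fell (21.2% and 24.5%), with a median of 0.14 against -0.10. Those that fell there were AT5G37670, AT1G52560 and HSA32. In 35S:MBS1 6 rose and 0 fell (22% and 25%), with a median of 2.34 against -0.08. These counts do not by themselves show that the lines differ, which was tested through the difference of their responses.

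**Figure D3:**
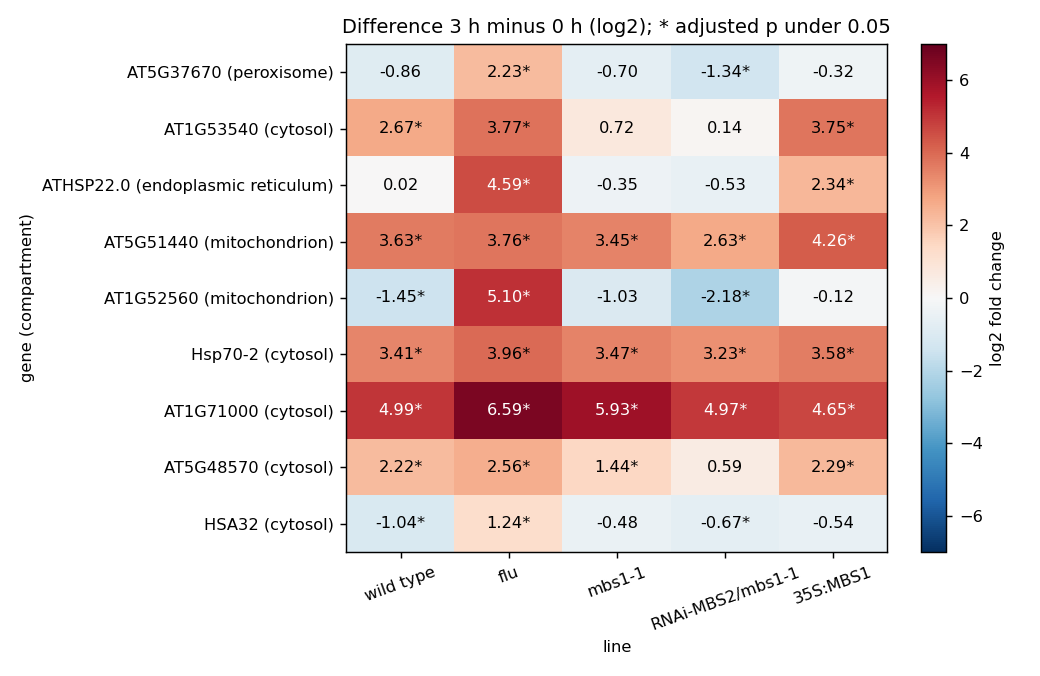
Log2 difference between 3 h and 0 h for the 9 genes in the 5 lines, as a heat map with the value in each cell and a mark on those called. All 9 genes are called higher in flu, from 1.24 for HSA32 to 6.59 for AT1G71000.

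The response was called larger in flu than in the wild type for 5 of 9 genes, against 5.13% of all probe sets called higher in this comparison. AT1G52560 differed most, by 6.56 ± 0.84 (limma adjusted p = 1.45e-05), followed by ATHSP22.0 with 4.57 ± 1.09 (limma adjusted p = 0.00825) and AT5G37670 with 3.09 ± 0.60 (limma adjusted p = 0.00157). HSA32 differed by 2.29 ± 0.33 (limma adjusted p = 5.12e-05) and AT1G71000 by 1.60 ± 0.48 (limma adjusted p = 0.0375). These are the genes that the heat map of responses shows near or below 0 in the wild type, with the exception of AT1G71000. Without wild type 0 h replicate 3 the difference was 5.50 ± 0.64 for AT1G52560, 2.94 ± 0.63 for ATHSP22.0, 2.31 ± 0.45 for AT5G37670 and 2.06 ± 0.33 for HSA32, all still called, against 4.5% of all probe sets. That of AT1G71000 was 1.36 ± 0.50 and not called (limma adjusted p = 0.109), and 10 of 20 alternatives ended its call. With only the 4 groups compared in the fit, the call of ATHSP22.0 was lost as well (limma adjusted p = 0.0893). For AT5G51440, Hsp70-2 and AT5G48570 the differences were 0.14 ± 0.48, 0.56 ± 0.25 and 0.34 ± 0.64, with 95% intervals of -0.85 to 1.12, 0.04 to 1.07 and -0.98 to 1.65. The interval of AT1G53540, -1.67 to 3.89, was the widest. With that wild type array left out these 4 differences were -0.44 ± 0.38, 0.41 ± 0.26, -0.62 ± 0.37 and -0.83 ± 0.86, in the same order, and none was called.

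At 3 h the level in flu was called higher than that in the wild type for the same 5 genes. The comparison shares both groups at 3 h with the test of the responses. The groups did not overlap for any of the 9 genes, with flu higher in each, against 14.6% of all probe sets. The test called 5 of them higher, against 8.66% of all probe sets. AT1G52560 was higher in flu by 6.24 ± 0.59 (limma adjusted p = 3.97e-08). ATHSP22.0 was higher by 4.64 ± 0.77 (limma adjusted p = 9.42e-05), and AT5G37670 was higher by 3.00 ± 0.43 (limma adjusted p = 1.39e-05). HSA32 was 4.58-fold higher, with 2.19 ± 0.23 (limma adjusted p = 1.82e-07). AT1G71000 was higher by 1.30 ± 0.34 (limma adjusted p = 0.00788), but by 0.72 and not called without wild type 3 h replicate 2 (limma adjusted p = 0.102), and also not called with only the 2 groups in the fit (limma adjusted p = 0.116).

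The other 4 genes had smaller differences or wider errors. AT1G53540 differed by 2.56 ± 0.95 (limma adjusted p = 0.0638) and AT5G48570 by 1.22 ± 0.45 (limma adjusted p = 0.0611), and 95% intervals were 0.59 to 4.52 and 0.29 to 2.15. These errors include the wild type at 0 h, which is not compared here and had SDs of 3.36 and 1.66 in these genes. In the wild type and flu at 3 h the SDs were 0.55 and 0.40 for AT1G53540 and 0.21 and 0.20 for AT5G48570. Both genes were called higher with only the 2 groups compared in the fit (limma adjusted p = 0.00196 and 0.00251). They were also called without the pair of arrays with the highest means over all probe sets (wild type 0 h replicate 1, mbs1-1 3 h replicate 1). AT5G51440 differed by 0.47 ± 0.34 and Hsp70-2 by 0.33 ± 0.18, with 95% intervals of -0.23 to 1.16 and -0.04 to 0.69. The median over the 9 genes was 2.19, against -0.05 over all probe sets. The shoot marker RCA was lower in flu at 3 h, by 0.62 ± 0.11 (limma adjusted p = 0.000114), after a fall of 0.68 ± 0.11 between 0 h and 3 h in flu, and 0 of the 4 matched root markers were called. The part of shoot tissue in the difference was not tested.

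**Figure D4:**
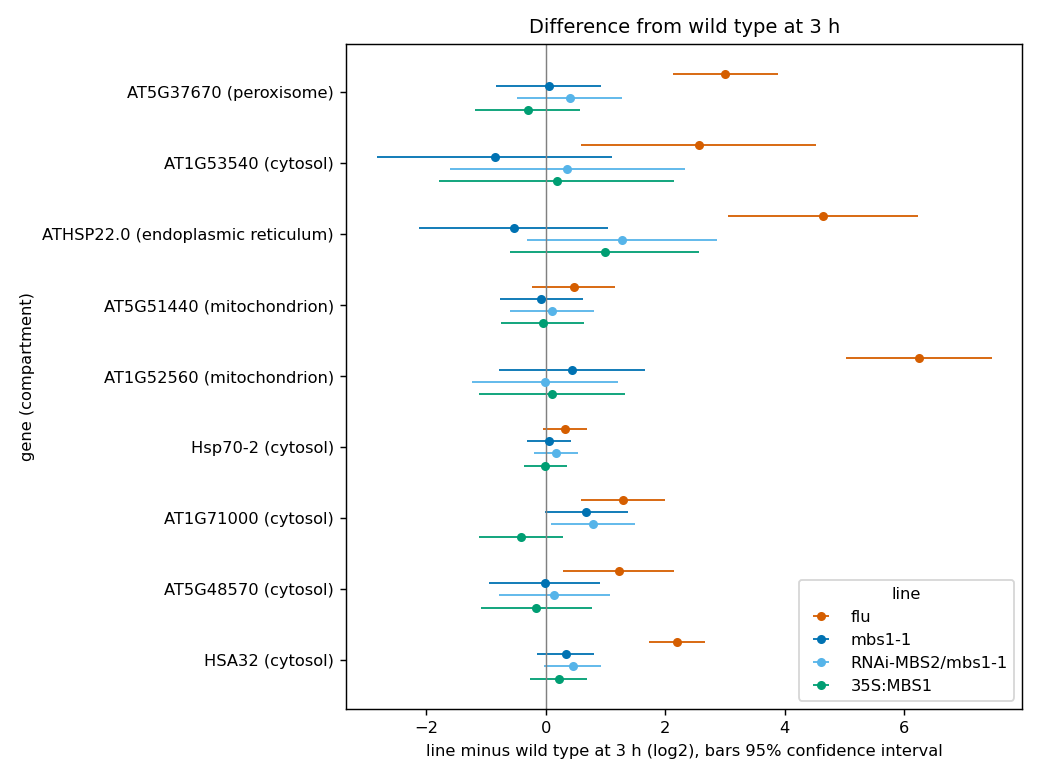
Log2 difference of flu and of each MBS1 line from the wild type at 3 h for the 9 genes, with the 95% confidence interval as a bar. The flu points lie above 0 for all 9 genes, and the intervals of the other 3 lines include 0 with the exception of AT1G71000 in RNAi-MBS2/mbs1-1.

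The plot of differences from the wild type at 3 h shows the intervals of the 3 MBS1 lines lying around 0. Of the 27 differences of these lines 0 were called by limma, against 0.0176% of all probe sets in 35S:MBS1, 0.435% in mbs1-1 and 0.22% in RNAi-MBS2/mbs1-1. They ranged from -0.85 for AT1G53540 in mbs1-1 to 1.28 for ATHSP22.0 in RNAi-MBS2/mbs1-1, and the lowest adjusted p was 0.484. At an unadjusted p under 0.05 there was 1, AT1G71000 in RNAi-MBS2/mbs1-1, with 0.79 ± 0.34, against 3.8%, 10.7% and 5.91% of all probe sets in the 3 lines, in the order above. Without wild type 3 h replicate 3 the difference of AT1G71000 in RNAi-MBS2/mbs1-1 was 1.37 and called, and so was AT1G71000 in mbs1-1 with 1.26 (limma adjusted p = 0.0197 and 0.0336). The 95% intervals reached from -2.82 to 2.86, and for the genes with wide errors differences of several fold lie within them. Their width includes the spread of the wild type at 0 h, with SDs of 3.36 for AT1G53540 and 2.83 for ATHSP22.0. In the groups compared at 3 h the SDs were 0.08 to 0.55 and 0.05 to 0.40. For Hsp70-2 the intervals were narrower, -0.37 to 0.36 in 35S:MBS1, -0.31 to 0.42 in mbs1-1 and -0.20 to 0.53 in RNAi-MBS2/mbs1-1.

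Flu was also compared with the mean of the 3 MBS1 lines at 3 h, which shares the flu arrays with the comparison above. It was called higher for 7 of 9 genes, against 11.3% of all probe sets. AT1G52560 differed by 6.06 ± 0.48, ATHSP22.0 by 4.06 ± 0.63, AT5G37670 by 2.95 ± 0.35 and HSA32 by 1.86 ± 0.19. AT1G53540 was called here, with 2.66 ± 0.78 (limma adjusted p = 0.0113), as was AT5G48570 with 1.23 ± 0.37 (limma adjusted p = 0.0129). Both calls were lost without flu 3 h replicate 3, and that of AT5G48570 also without replicate 1 (limma adjusted p of 0.0535 to 0.0693). The groups did not overlap for 8 genes, against 8.23% of all probe sets, and Hsp70-2 was the one that overlapped. AT5G51440 differed by 0.47 ± 0.28 and was called with only the 4 groups compared in the fit (limma adjusted p = 0.00740). The RCA marker was lower in flu in this comparison too, by 0.63 ± 0.09.

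At 0 h 0 of the 9 genes were called by limma between any line and the wild type with all arrays. The shares of all probe sets called were 0.506% in flu, 0.0176% in 35S:MBS1, 0.0308% in mbs1-1 and 0.0308% in RNAi-MBS2/mbs1-1. At an unadjusted p under 0.05 there were 0 of 9 genes in flu and 0 in mbs1-1, against 9.42% and 8.39% of all probe sets. In RNAi-MBS2/mbs1-1 there were 6, against 7.42%, and in 35S:MBS1 1, AT1G52560, against 3.86%. In RNAi-MBS2/mbs1-1 all 9 values were above 0, from 0.08 for HSA32 to 2.90 ± 0.95 for AT1G53540. In 35S:MBS1 all 9 were below 0, from -1.33 ± 0.77 for ATHSP22.0 to -0.07 for AT1G71000. The lowest adjusted p in the 3 MBS1 lines was 0.296, for AT5G48570 in RNAi-MBS2/mbs1-1.

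Without wild type 0 h replicate 3 more genes were called at 0 h. In RNAi-MBS2/mbs1-1 5 genes were then called higher, against 0.119% of all probe sets. AT1G53540 differed by 4.83 ± 0.64 (limma adjusted p = 0.000191), ATHSP22.0 by 3.46 ± 0.47 (limma adjusted p = 0.000208) and AT5G48570 by 2.73 ± 0.27 (limma adjusted p = 2.51e-06). AT5G51440 differed by 1.67 ± 0.28 (limma adjusted p = 0.00503) and AT5G37670 by 1.66 ± 0.34 (limma adjusted p = 0.0353). In flu 2 genes were called higher (0.141% of all probe sets), AT1G53540 with 3.39 ± 0.64 and AT5G48570 with 1.84 ± 0.27. In mbs1-1 AT5G48570 was called, with 1.72 ± 0.27 (0.0264% of all probe sets), and in 35S:MBS1 0 were called by limma (0.0132%). The median over the 9 genes in 35S:MBS1 moved from -0.69 to -0.03. Which of the wild type arrays at 0 h is typical of that group was not tested.

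**Figure D5:**
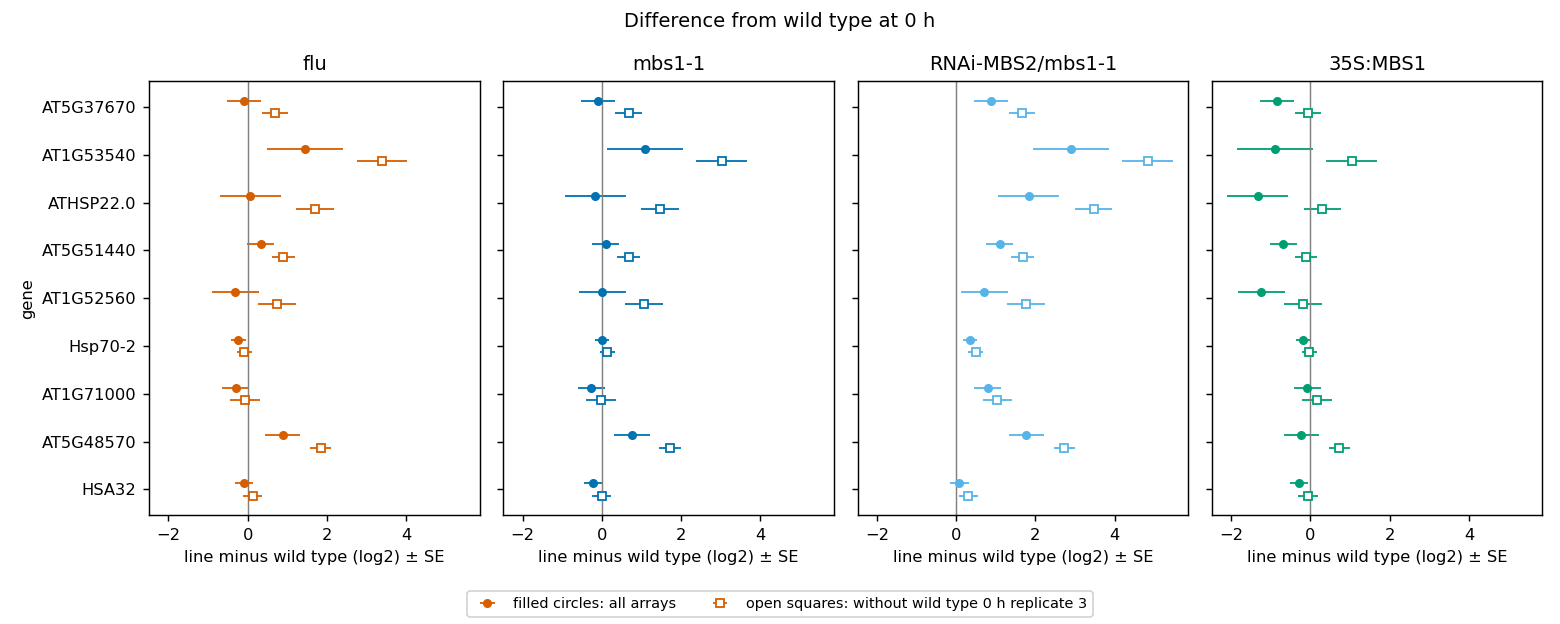
Log2 difference of each line from the wild type at 0 h for the 9 genes, with the standard error as a bar, from all arrays and without wild type 0 h replicate 3. Leaving out that array moves every point to the right, for AT1G53540 in RNAi-MBS2/mbs1-1 from 2.90 to 4.83.

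As the plot of differences at 0 h shows, the values of the 4 lines share the wild type arrays and move together when one is left out. Comparisons among the MBS1 lines use no wild type mean. Their errors still include the wild type arrays at 0 h, as the spread of each gene was estimated over all 10 groups. They are not given here without wild type 0 h replicate 3. At 0 h RNAi-MBS2/mbs1-1 exceeded mbs1-1 in mean level for 9 of 9 genes, by 0.31 for HSA32 to 2.00 ± 0.77 for ATHSP22.0, and for 6 of them the groups did not overlap, against 8.81% of all probe sets. None of these differences was called by limma, against 0.0044% of all probe sets, and 5 had an unadjusted p under 0.05, against 8.78%. The median of the 9 was 1.00, against 0.03 over all probe sets. Against the mean of mbs1-1 and RNAi-MBS2/mbs1-1, the values of 35S:MBS1 at 0 h were below 0 for 9 of 9 genes, from -2.89 for AT1G53540 to -0.21 for HSA32. Here 0 were called by limma (0.0352% of all probe sets), and 7 had an unadjusted p under 0.05, against 3.57% of all probe sets lower at that level. AT5G51440 was at 7.25, 7.19 and 8.51 in 35S:MBS1, at 8.44, 8.51 and 8.35 in mbs1-1 and at 9.90, 9.65 and 8.76 in RNAi-MBS2/mbs1-1. Replicate 3 of 35S:MBS1 lay within the range of mbs1-1 and the other replicates below it, and the difference was -1.29 ± 0.29 (limma adjusted p = 0.158). It was called without that array, and also without RNAi-MBS2/mbs1-1 0 h replicate 3 (limma adjusted p = 0.0221 and 0.0305).

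At 3 h the same comparisons gave 1 gene each at an unadjusted p under 0.05, against 10.4% and 6.63% of all probe sets, and 0 called by limma (0.00879% and 0.0572% of all probe sets). ATHSP22.0 differed by 1.81 ± 0.77 between RNAi-MBS2/mbs1-1 and mbs1-1. AT1G71000 differed by -1.15 ± 0.29 between 35S:MBS1 and the mean of mbs1-1 and RNAi-MBS2/mbs1-1 (limma adjusted p = 0.199), and this was called with only the 3 groups compared in the fit (limma adjusted p = 0.0393). Set against the response of the wild type, that of each MBS1 line gave 0 calls by limma. The shares of all probe sets called were 0% for 35S:MBS1, 0.0528% for mbs1-1 and 0.0528% for RNAi-MBS2/mbs1-1, and 1, 0 and 2 of the 9 genes had an unadjusted p under 0.05, against 3.22%, 12.8% and 7.67%. Without wild type 0 h replicate 3 the response of RNAi-MBS2/mbs1-1 was called smaller for 2 genes, against 0.0923% of all probe sets. The difference was -4.47 ± 0.86 for AT1G53540 (limma adjusted p = 0.0334) and -2.59 ± 0.37 for AT5G48570 (limma adjusted p = 0.00280). For mbs1-1 and 35S:MBS1 there were then 0 calls of the 9 genes, against 0.123% and 0% of all probe sets.

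The 9 genes varied together to a degree that depended on the wild type arrays at 0 h. Over the 30 arrays the Pearson correlation of the 36 pairs had a median of 0.60 and ranged from -0.18 to 0.98. After each group's mean was removed the median was 0.64 and all 36 were above 0. Without the 3 wild type arrays at 0 h, 27 arrays remained, the median was 0.35, and 32 of 36 were above 0, from -0.42 to 0.78. These values describe arrays that share lines and times, and no test was made of them.

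Other genes of the heat shock system were taken from 5 lists of 97 genes, of which 22 had a probe set of their own. In the wild type 15 of the 22 rose at 3 h and 1 fell, against 21.1% and 24.4% of all probe sets. In flu 17 rose and 1 fell, against 23% and 25.1%. The median difference was 0.88 in the wild type and 1.19 in flu. At 3 h flu was called higher than the wild type for 8 of the 22 and lower for 1 (8.66% and 9.65% of all probe sets). The median difference was 0.25, against -0.05 over all probe sets. None of the 22 was called by limma between any line and the wild type at 0 h, or between an MBS1 line and the wild type at 3 h. When wild type 0 h replicate 3 was left out, 16 of the 22 rose in the wild type and 1 fell (19% and 24.9% of all probe sets), and at 0 h 3 were called higher in RNAi-MBS2/mbs1-1 than in the wild type (0.119%). They were AT2G29500 with 2.32 ± 0.30, AT1G54050 with 1.66 ± 0.23 and Hop3 with 1.72 ± 0.28. The response of RNAi-MBS2/mbs1-1 was then smaller than that of the wild type for AT1G54050, by a difference of -1.76 ± 0.31 (limma adjusted p = 0.0188). It was the 1 such call among the 22, against 0.0923% of all probe sets called lower.

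Of the other small heat shock proteins 6 of 15 were matched to a probe set of their own. AT1G54050, a class III small heat shock protein, had differences between 3 h and 0 h of 0.41 ± 0.39 in the wild type, not called, and of 2.96 ± 0.39 in flu. It rose in the wild type by 1.24 ± 0.23 without wild type 0 h replicate 3 (limma adjusted p = 8.59e-05). At 3 h it was higher in flu by 2.69 ± 0.39 (limma adjusted p = 1.52e-05). AT2G29500, a class I small heat shock protein, rose by 2.78 ± 0.46 in the wild type, by 3.73 ± 0.30 there without that array, and by 3.63 ± 0.46 in flu. AT4G21870 fell in every line, by 2.11 ± 0.18 in the wild type and by 3.08 ± 0.18 in flu, and was lower in flu at 3 h by 1.31 ± 0.18 (limma adjusted p = 1.02e-05). Of the HSP70 family 3 of 17 were matched. AT3G09440 rose by 3.04 ± 0.20 in the wild type and 3.62 ± 0.20 in flu, and AT4G16660 by 1.09 ± 0.13 and 1.61 ± 0.13. Of 19 HSP90, HSP100 and HSP60 genes 1 was matched, the chaperonin subunit Cpn60beta2, which rose by 1.73 ± 0.18 in the wild type and 1.31 ± 0.18 in flu.

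The co-chaperones were the best covered, with 12 of 21 matched. In the wild type 9 rose and in flu 10, against 21.1% and 23% of all probe sets. At 3 h 6 were called higher in flu than in the wild type, against 8.66%. The median difference between flu and the wild type at 3 h was 0.36. Fes1A, a nucleotide exchange factor of HSP70, was higher in flu by 1.84 ± 0.28 (limma adjusted p = 2.92e-05), and the DnaJ protein AT2G20560 by 1.63 ± 0.31 (limma adjusted p = 0.000386). Hop3 and Hop2, which join HSP70 to HSP90, were higher by 1.33 ± 0.37 and 0.70 ± 0.11 (limma adjusted p = 0.0131 and 3.15e-05). The response in flu was called higher than in the wild type for 5 of the 22 genes and lower for 1, against 5.13% and 3.28% of all probe sets. Among those named it was higher for AT1G54050, Fes1A, AT2G20560 and Hop2, with differences of 2.55, 1.89, 1.62 and 0.87. For AT4G21870, which fell further in flu than in the wild type, the difference was -0.97, also called. For Hop3 it was 1.07 ± 0.53 and not called (limma adjusted p = 0.248). With wild type 0 h replicate 3 left out the differences of AT1G54050, Fes1A and Hop2 were 1.72 ± 0.31, 1.51 ± 0.35 and 0.84 ± 0.16, all called, and that of AT2G20560 was 1.12 ± 0.36 and not called (limma adjusted p = 0.0601). That of AT4G21870 was then -0.93 ± 0.28, still called. Of 25 heat stress transcription factors and linked regulators 0 were matched to a probe set of their own in the annotation used, so they were not analysed here.

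The genes whose levels over the 30 arrays were most like the mean of the 9, each gene scaled to equal spread, were AT1G72660 and AT1G30070 with a Pearson correlation of 0.95 each, AT1G54050 with 0.94, AT5G25450 with 0.92 and AT5G57480 with 0.91. They were picked for this likeness among all probe sets matched to 1 gene, so their values are a description. For single genes the closest pattern was that of AT3G52740 for Hsp70-2, with 0.99, AT2G21130 for AT1G71000, with 0.99, AT5G19240 for AT5G51440, with 0.98, and Hop3 for AT5G48570, with 0.97. AT1G72660 was closest both to AT1G53540 and to ATHSP22.0, with 0.92 and 0.93. TBL37 was closest to HSA32 with 0.92, AT5G10695 to AT1G52560 with 0.91 and AT4G23493 to AT5G37670 with 0.90.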

How the data were processed

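Per the labels' protocols, total RNA (NucleoSpin RNA Plant) was turned into biotin-labelled cDNA with a NuGEN Encore module. The authors' deposited table holds log2 values for 22810 ATH1 probe sets on 30 arrays. RMA and affy are named in the submitters' processing notes, with versions not given in the sources used here. RMA subtracts background, makes the arrays' distributions equal and summarizes probes on the log2 scale, so shifts shared by all genes are reduced and low values are compressed. Some shared shift remained, since array means differed and replicate 1 of mbs1-1 at 3 h was the highest of its group in 67.8% of probe sets.

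From these values, 64 control probe sets were left out and 22746 were tested. Probe sets were named through GEO's platform annotation: 13513 had 1 gene, 503 had several and 8730 had none. A gene is named here only through a probe set that has it alone, so genes that the annotation used gives no such probe set were not analysed here. Group means of all 10 groups were fitted with limma 3.58.1 (lmFit and eBayes, R 4.3.3), and 22 comparisons were made. The 10 groups share 1 estimate of the spread per probe set, so a scattered group widens the errors of every comparison. A difference is called at a Benjamini-Hochberg adjusted p under 0.05 over all 22746 probe sets. Errors are standard errors of the fit, SD refers to 3 arrays, and intervals are 95%. The labels call the replicates biological and do not say how the seedlings were grown apart, so the p-values measure the spread between these arrays. The procedure was tested on simulated data.

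The 9 genes and the lists were chosen with earlier results of these data known. The 9 genes are named throughout. Of each other list, up to 4 genes with the largest called difference between flu and the wild type at 3 h are named, or the 1 with the smallest p where none was called. AT2G29500 and AT3G09440 were chosen after their values were seen. Like genes are the 5 with the highest Pearson correlation to the members' mean and the 1 closest to each gene. Alternatives were a replicate block, a filter on means under 5, quantile normalization, median centring, another variance prior, only probe sets with 1 gene, leaving out both brighter arrays, only the arrays compared, and leaving out each array in turn. Figures were drawn with matplotlib 3.10.9. No sequence or genome position was used.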

Additional observations from a re-analysis of the deposited data

Results flagged for a closer look

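For 5 genes the response, which covers the darkness and the high light together, differed between flu and the wild type by the test of the difference itself. The difference was 3.09 for AT5G37670, 4.57 for ATHSP22.0, 6.56 for AT1G52560, 1.60 for AT1G71000 and 2.29 for HSA32 on the log2 scale, the response being higher in flu in each. Without wild type 0 h replicate 3 they were 2.31, 2.94, 5.50, 1.36 and 2.06 in the same order, and that of AT1G71000 was not called. Its call was lost in 10 of 20 alternatives. That of ATHSP22.0 was lost with only the arrays compared in the fit (limma adjusted p = 0.0893). Groups of 3 arrays were not tested for outlying samples.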

How the results depend on the processing

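Over the 9 genes, 22 comparisons and all alternatives 3096 values were recomputed, of which 3031 kept their direction and their side of the threshold, or were not called in either. A call was lost in 32 and gained in 33, and none that was called changed sign. Among values called in neither, 105 changed sign. With only the arrays compared in the fit, 3 genes rather than 5 differed in response between flu and the wild type, and 1 rather than 0 differed between 35S:MBS1 and the mean of mbs1-1 and RNAi-MBS2/mbs1-1 at 3 h. Leaving out 1 array at a time gave 0 to 2 genes for flu against the wild type at 0 h, 0 to 1 for mbs1-1 and 0 to 5 for RNAi-MBS2/mbs1-1. It gave 0 to 1 for mbs1-1 and for RNAi-MBS2/mbs1-1 against the wild type at 3 h, 0 to 2 for the response of RNAi-MBS2/mbs1-1 against that of the wild type, and 0 to 1 for 35S:MBS1 against the mean of mbs1-1 and RNAi-MBS2/mbs1-1 at 0 h. Wild type 0 h replicate 3 gave the high end in the comparisons with the wild type at 0 h, and the cause was not tested.

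All groups share the replicate numbers 1 to 3, and the labels do not say whether equal numbers pair samples. Deviations of same-numbered arrays from their group means correlated at -0.31 to 0.37 over 135 pairs, with a median of -0.01 and 30 over 0.1. A median over all groups cannot show whether some of them were paired. With the replicate number as a block, 6 genes rather than 7 were called for the wild type's response, the call of AT1G52560 being the one lost, and flu kept 9. The block changed no other call.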
